A study of Mus musculus with 18 samples.

Results

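The genes described here are 51 genes of mitosis and the kinetochore, found in all 51 cases among the 55453 gene symbols of a count table from sorted neonatal mouse cardiac fibroblasts. They were chosen by symbol for their known roles in mitosis, with earlier results of these data known. The list holds mitotic kinases, checkpoint, kinetochore, condensin, chromatid separation and cytokinesis genes, and leaves out the mitotic kinesins apart from the centromere protein Cenpe. All 51 passed the filter on low counts and are among the 16170 genes tested. The cells were GFP+ cells of the Tcf21 lineage, sorted from apical ventricle tissue of C57BL/6J pups carrying Tcf21-MerCreMer and Rosa-mTmG. In these pups every group had received tamoxifen at postnatal day 1 (P1), which turns on membrane GFP in cells that express the Tcf21-driven Cre and in their progeny. Baseline cells came from un-manipulated pups at P2 or P10. In the other groups the apex was resected, or sham surgery was done, at P2 or P10, and cells were collected 3 days later, at P5 or P13. Each of the 6 groups holds 3 libraries, so 18 libraries were compared. How many pups went into a library, and of which sex, is not given in the sources used here, so p-values measure the spread between these libraries. The label covers a lineage rather than a sorted cell state, and other cells that express Tcf21 at P1 would carry GFP as well.

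Mitosis is run by the kinase Cdk1 with its A and B cyclins. Chromosomes are compacted by condensins, attached to the spindle at kinetochores, held by a checkpoint until every kinetochore is attached, and released when the anaphase-promoting complex (APC/C) with Cdc20 destroys securin and cyclin B. Most transcripts of this program are made in the later part of the cell cycle under the MuvB, B-Myb and FoxM1 complexes, through promoter elements called the cell cycle genes homology region (CHR) and the CCAAT box bound by NF-Y, so they are often read as a measure of how many cells are dividing. Cardiac fibroblasts multiply around birth and become largely quiescent as the heart matures.

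Libraries held 10462737 to 22980554 counts, of which 9618 to 90707 fell on the 51 genes. The fibroblast markers were present in all libraries, with Tcf21 at 203 to 447 CPM (counts scaled to the library total after TMM) and Pdgfra at 256 to 878 CPM. Cardiomyocyte markers summed to between 163 and 1482 CPM over 11 genes, macrophage and myeloid markers to between 5.29 and 1081 CPM over 12 genes, and epicardial markers were at most 53.3 CPM over 7 genes. Libraries also differed in how much of their counts came from long transcripts. Genes with a transcript of 5000 bases or more took 15.2% of the counts of P2 sham replicate 2 and 31.5% of those of P10 baseline replicate 1, the lowest and the highest of the 18 libraries. Replicate 1 of the P2 sham, P10 sham and P10 baseline groups, whose titles share a number, each had the highest such share of its group, at 28.8%, 26.8% and 31.5%. In the values below, each group is given in the order of its replicates 1, 2 and 3.

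RefSeq lists a promoter on GRCm38.p6 for 43 of the 51 genes, each 300 bases long with 250 bases before the transcription start. The 5 shown here belong to genes that behaved differently with age. Cdk1 and Ccnb2 were called lower at P10 in un-manipulated, sham and resected pups alike, Plk1 had the smallest adjusted p when all libraries of each age were compared, and Bub3 and Pttg1 were called in no comparison. Capitals mark the CHR core TTTGAA and the CCAAT box, on either strand.
Cdk1 (chr10:69352863-69353162, minus strand): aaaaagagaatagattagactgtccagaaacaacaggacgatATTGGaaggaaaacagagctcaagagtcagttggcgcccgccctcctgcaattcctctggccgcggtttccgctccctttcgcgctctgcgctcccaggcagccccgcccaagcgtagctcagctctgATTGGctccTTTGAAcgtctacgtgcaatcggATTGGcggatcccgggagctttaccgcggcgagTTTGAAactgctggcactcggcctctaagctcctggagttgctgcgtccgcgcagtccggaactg
Ccnb2 (chr9:70421505-70421804, minus strand): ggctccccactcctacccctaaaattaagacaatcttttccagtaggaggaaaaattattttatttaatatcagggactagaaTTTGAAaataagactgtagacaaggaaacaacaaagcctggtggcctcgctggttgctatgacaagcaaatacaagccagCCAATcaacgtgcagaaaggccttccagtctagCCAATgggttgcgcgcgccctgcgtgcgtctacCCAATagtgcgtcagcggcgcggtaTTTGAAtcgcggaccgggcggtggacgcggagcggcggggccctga
Plk1 (chr7:122159185-122159484, plus strand): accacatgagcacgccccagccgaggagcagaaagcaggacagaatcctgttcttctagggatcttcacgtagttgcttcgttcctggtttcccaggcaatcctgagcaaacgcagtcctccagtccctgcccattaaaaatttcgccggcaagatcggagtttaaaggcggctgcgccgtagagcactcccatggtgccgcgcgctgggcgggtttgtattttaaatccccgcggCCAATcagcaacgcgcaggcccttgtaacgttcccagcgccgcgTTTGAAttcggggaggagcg
Bub3 (chr7:131560120-131560419, plus strand): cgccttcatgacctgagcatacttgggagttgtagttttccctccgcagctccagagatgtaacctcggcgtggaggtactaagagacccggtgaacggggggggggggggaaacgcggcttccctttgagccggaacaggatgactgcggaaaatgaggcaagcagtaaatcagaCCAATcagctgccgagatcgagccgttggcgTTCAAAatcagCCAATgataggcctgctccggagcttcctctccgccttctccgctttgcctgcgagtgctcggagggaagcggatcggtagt
Pttg1 (chr11:43425932-43426231, minus strand): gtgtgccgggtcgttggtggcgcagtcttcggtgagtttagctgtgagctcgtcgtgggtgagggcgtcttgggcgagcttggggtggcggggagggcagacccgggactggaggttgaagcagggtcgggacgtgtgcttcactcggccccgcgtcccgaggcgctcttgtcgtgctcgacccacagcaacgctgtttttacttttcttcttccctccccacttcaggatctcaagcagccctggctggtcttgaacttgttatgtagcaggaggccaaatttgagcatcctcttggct
Positions are those of the leftmost letter, with 0 the start base. Ccnb2 held CCAAT boxes at -87, -54 and -21 and a CHR core at 4, with another core at -167. Cdk1 held CCAAT boxes at -208, -80 and -48 and CHR cores at -71 and -15. Plk1 held a CCAAT box at -14 and a CHR core at 30. Bub3 held CCAAT boxes at -74 and -32 with a CHR core at -43, whereas the Pttg1 window held neither. That Pttg1 window lies wholly inside the gene as GENCODE places it (chr11:43420250-43426251, minus strand). Bases upstream of the GENCODE start of Pttg1 were therefore not searched. Of the 40 promoters whose genes were called lower when all libraries of each age were compared, 26 held the core, 32 a CCAAT box, 23 both and 5 neither. Of the 3 promoters whose genes were not called, 1 held both, 1 a CCAAT box alone and 1, the Pttg1 window inside the gene, neither. Over the 43 first listed promoters, the CHR core was present in 27 (62.8%), against 18.1% of the 27018 first listed promoters of all genes. The CCAAT box was present in 34 (79.1%, against 37.9%), and both together in 24 (55.8%, against 7.12%). Letters of the E2F motif were searched on both strands as TTGGCGC and in the forms TTCGCGC and TTGCCGC. The form TTCCCGC was counted as well, and at least 1 of the 4 was present in 10 promoters (23.3%, against 9.69%). These shares are a description of letters in a fixed window, and the matches were not tested as binding sites.

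The level of the mitotic genes separated the ages. Their summed level was 3967, 3695 and 3728 CPM at P2 baseline, 3999, 3186 and 3829 CPM in the P2 sham group and 2604, 3875 and 3311 CPM in the P2 resected group. At P10 it was 1362, 842 and 976 CPM at baseline, 609.6, 876 and 646 CPM after sham surgery and 1110.2, 1522 and 747 CPM after resection. The lowest P2 library therefore stood above the highest P10 library. In these bulk samples fewer dividing cells and less of each transcript per cell cannot be told apart. Cardiomyocyte markers were also lower at P10, with 6 of 11 called lower when the 3 P10 groups were compared with the 3 P2 groups and sums of 1094 to 1482 CPM at P2 baseline against 525 to 703 CPM at P10 baseline, with 1 or 2 of the 11 genes at 0 in 7 of the 9 P10 libraries and 1 gene at 0 in 2 of the 9 P2 libraries. Their sums were 909 to 1264 CPM against 163 to 815 CPM in the sham groups and overlapped in the resected groups, at 316 to 923 CPM and 239 to 721 CPM. Mural cell markers (pericytes and smooth muscle) differed in both directions, with Rgs5, Kcnj8 and Myh11 called higher at P10 and Mcam lower among 7 genes, and their sums were 386 to 587 CPM at P2 baseline and 620.1 to 1459.8 CPM at P10 baseline. These mural sums overlapped in the sham groups, at 367 to 938 CPM at P2 and 531 to 940.3 CPM at P10, and in the resected groups, at 561 to 959 CPM and 640 to 895 CPM. Macrophage and myeloid markers summed to 14.6 to 65.8 CPM at P2 baseline and 17.7 to 201 CPM at P10 baseline. In the sham groups they summed to 5.29 to 195 CPM at P2 and 89.6 to 362 CPM at P10, with a positive difference for all 12 genes (median 1.37), and in the resected groups to 66.2 to 448 CPM and 69.5 to 1081 CPM, with 11 of 12 positive (median 1.03). None of the 12 was called in these separate comparisons, and 1, Itgam, was called higher in the comparison of all 3 groups. Endothelial markers summed to 229 to 361 CPM at P2 baseline and 370.3 to 422 CPM at P10 baseline, without overlap, and the sums overlapped in the sham and resected groups. One endothelial marker, Esam, was called higher in the comparison of all groups, as was the fibroblast marker Dcn, while the fibroblast marker Postn was called lower and no epicardial marker was called. The part of these markers in the age difference was not tested.

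**Figure D1:**
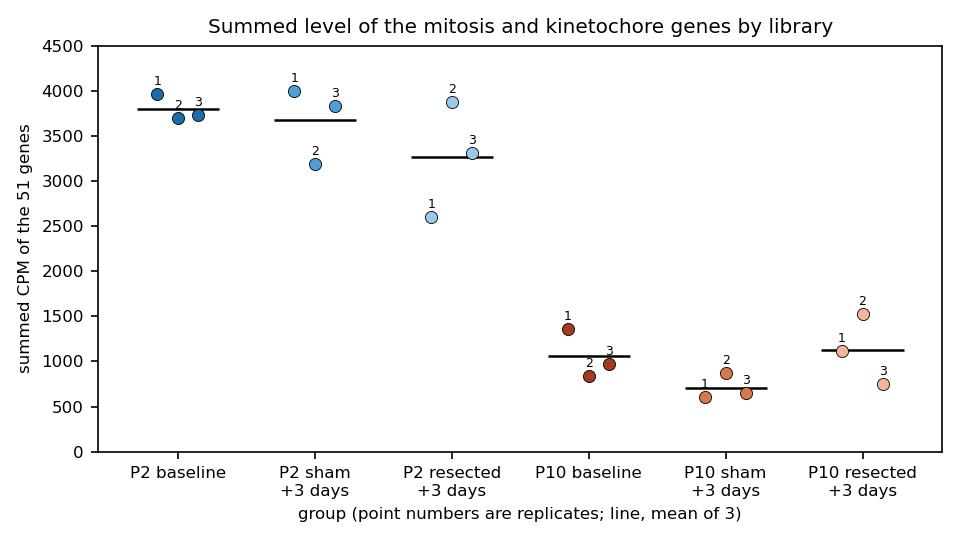
Summed CPM of the 51 mitosis and kinetochore genes in each library (vertical axis) for the 6 groups (horizontal axis), with points numbered by replicate and a line at the mean of 3. The 9 P2 libraries sit between 2604 and 3999 CPM and the 9 P10 libraries between 609.6 and 1522 CPM.

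Differences are given as log2 fold changes from edgeR's quasi-likelihood test. Their standard error (SE) was derived as the size of the log2 fold change divided by the square root of the test's F statistic. Adjusted p-values are Benjamini-Hochberg values over all 16170 genes, called under 0.05. At baseline, 24 of the 51 genes were called lower at P10 and none higher, where 1.68% of all genes tested were called lower. Their median log2 fold change was -2.21, against -0.03 over all genes, and 48 of 51 had every P10 library below every P2 library, as did 12.1% of all genes. The count of 24 fell to 11 without P10 baseline replicate 2 (0.452% of all genes called lower) and rose to 43 without the filter on low counts (1.67%) and to 47 with voom and sample quality weights (12.1%), while DESeq2 called 34 (4.36%). After sham surgery, P13 against P5, 37 genes were called lower (1.65% of all genes) with a median of -2.93, against -0.07 over all genes. In the sham groups 46 genes did not overlap, against 7.61% of all genes. A fit of the sham groups alone called 20 of the 51 (0.479% of all genes), and the count was 37 again without P2 sham replicate 2 (1.31%), the library with few counts on long transcripts. After resection 4 genes were called lower (0.235% of all genes), namely Cdk1, Ccnb2, Nuf2 and Foxm1, with a median of -1.70 over the 51 genes against -0.04 over all genes. In the resected groups 45 genes did not overlap, against 12.7% of all genes. With the replicate number as a block, 8 were called lower (0.383% of all genes). The block treats same-numbered libraries as pairs, although no label pairs them. The count of 4 was 0 without P2 resected replicate 2 or 3 or without P10 resected replicate 1 or 3, where at most 0.139% of all genes were called lower. DESeq2 called 27 (1.6% of all genes), edgeR without the filter on low counts 41 (0.758%), voom with quality weights 43 (2.59%) and a fit of the resected groups alone 20 (0.987%), so the share of all genes called lower also rose in these fits. Whether the age difference itself differed between sham and resected groups is the same contrast as the difference in resection effects given further on.

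The mean of the 3 P10 groups against the mean of the 3 P2 groups, called the window difference here, had the most libraries behind it. In it 48 of 51 genes were called lower and none higher, where 6.39% of all genes were called lower, and the median was -2.32 against -0.06 over all genes. For 31 genes all 9 P10 libraries were below all 9 P2 libraries, as for 1.36% of all genes. The count was 48 or 49 without any of the 18 libraries and 48 or 49 under each alternative tested. The 3 genes not called were Cdc25b, Bub3 and Pttg1. The quartiles of the 51 genes were -2.64 and -2.01. The order of the 6 group means differed from gene to gene, and the commonest order was held by 12 genes. All 51 were highest in a P2 group, 27 of them at P2 baseline, 18 in the P2 sham group and 6 in the P2 resected group, whose values mostly overlap. The lowest mean was in the P10 sham group for 43 genes, and the P10 resected group ranked just below the 3 P2 groups for 35.

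**Figure D2:**
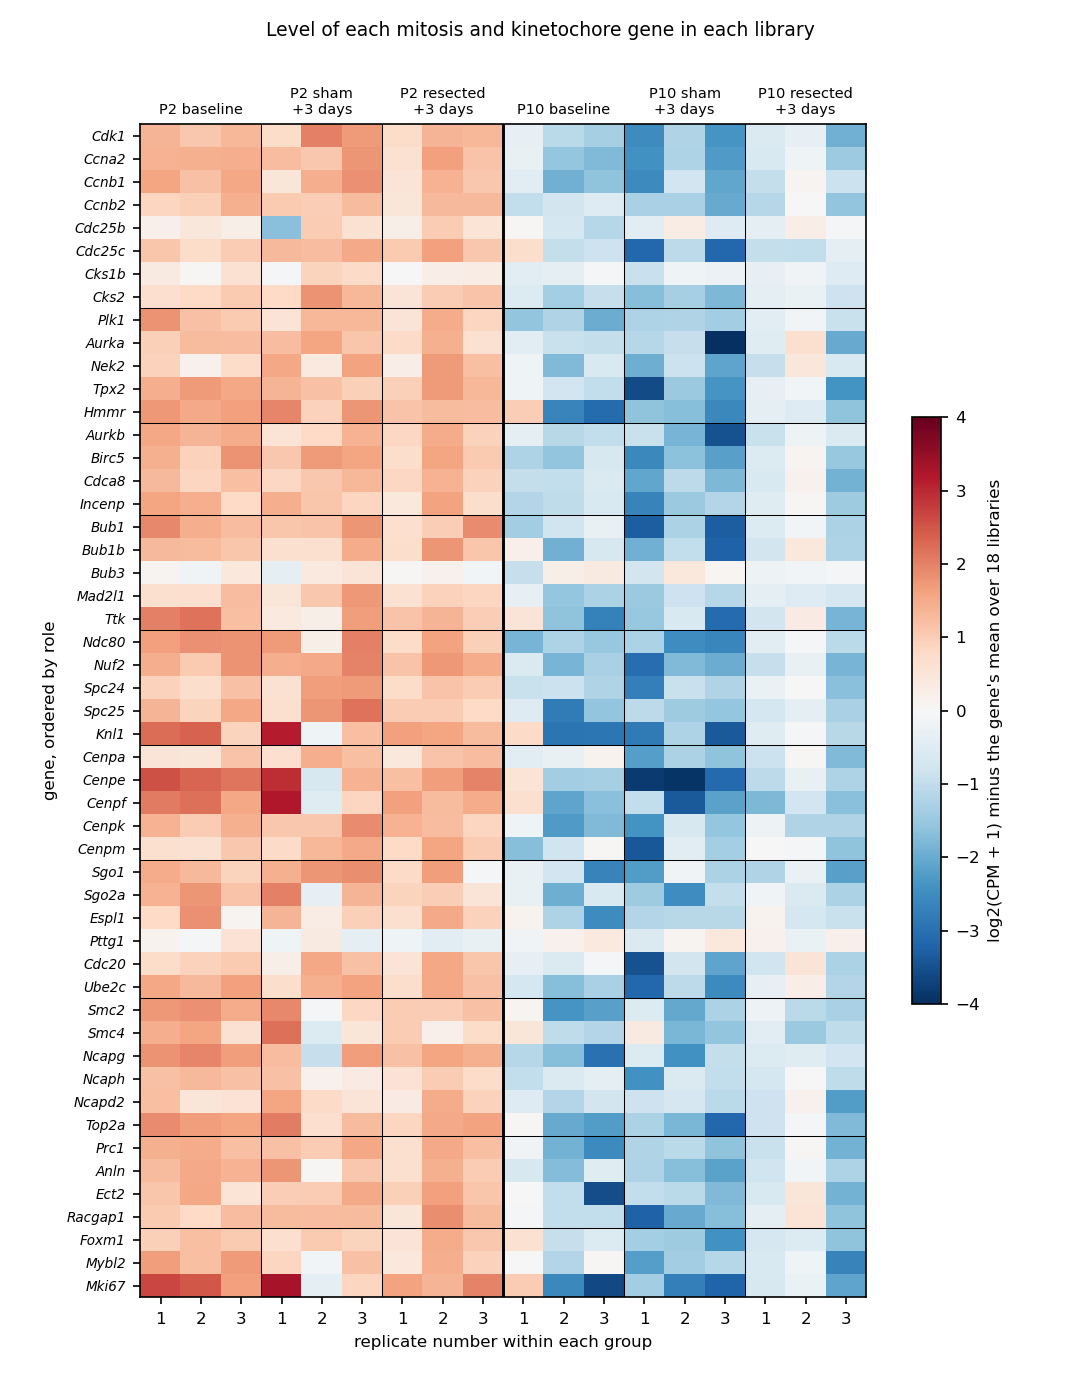
Level of each of the 51 genes (rows, ordered by role and separated by lines) in each of the 18 libraries (columns), as log2(CPM + 1) minus the gene's mean over the 18 libraries, with colours stopping at 4 in either direction. Most cells are red in the 9 P2 columns on the left and blue in the 9 P10 columns on the right, and the rows of Cdc25b, Cks1b, Bub3 and Pttg1 show little contrast.

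Levels between genes were compared per kilobase of the union of a gene's exons, which overstates the length of genes with long unspliced or alternative exons. At P2 baseline the highest was Cks1b at 104 CPM per kb, followed by Ccnb2 at 69.5, Cdc20 at 46.5, Ube2c at 39.1 and Ccna2 at 32.8 CPM per kb. The lowest was Sgo2a at 2.03 CPM per kb. At P10 baseline Cks1b was again high at 67.4 CPM per kb, and Pttg1 at 26.4 and Bub3 at 23.3 CPM per kb were above Cdc20 at 19.7 and Ccnb2 at 19 CPM per kb.

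Cdk1 and its partners comprise the kinase, its cyclins Ccna2, Ccnb1 and Ccnb2, the activating phosphatases Cdc25b and Cdc25c, and the small CDK-binding subunits Cks1b and Cks2. Of these 8 genes 7 were called lower in the window difference, with a median of -2.37. Cdk1 (chr10:69335146-69352938, GRCm38) was at 168, 136 and 162 CPM at P2 baseline, 108, 262 and 213 CPM in the P2 sham group and 108, 166 and 164 CPM in the P2 resected group. At P10, Cdk1 was at 51.1, 30.0 and 24.8 CPM at baseline, 10.5, 27.7 and 11.6 CPM after sham surgery and 42.5, 51.5 and 16.2 CPM after resection. Every P10 library was below every P2 library, with a window difference of -2.56 ± 0.27 (log2, SE, adjusted p = 5.58e-06), and P10 baseline replicate 1 and P10 resected replicates 1 and 2 were the highest of the P10 libraries. Cdc25c, which acts at mitotic entry, was at 18.2, 13.7 and 16.8 CPM at P2 baseline, 20.6, 19.8 and 24.1 CPM in the P2 sham group and 17.3, 26.3 and 17.7 CPM in the P2 resected group. At P10, Cdc25c was at 13.5, 3.58 and 3.95 CPM at baseline, 0, 3.23 and 0 CPM after sham surgery and 3.58, 3.43 and 5.83 CPM after resection. It had no read in 2 of the 3 P10 sham libraries, while P10 baseline replicate 1 came just under the lowest P2 library, and the window difference was -2.61 ± 0.60 (adjusted p = 0.00679). Cdc25b was at 32.5, 38.9 and 33 CPM at P2 baseline, 8.03, 56.9 and 42.8 CPM in the P2 sham group and 33.1, 57.7 and 41.2 CPM in the P2 resected group. At P10, Cdc25b was at 28.6, 16.7 and 12.1 CPM at baseline, 20.2, 34.9 and 19 CPM after sham surgery and 21.4, 34 and 26.1 CPM after resection. Here the ages overlapped in the sham and in the resected groups but not at baseline, and P2 sham replicate 1 was the lowest of all libraries. The window difference of -0.70 ± 0.29 was not called (adjusted p = 0.121). The cyclins fell by similar amounts, with window differences of -2.59 for Ccna2, -2.47 for Ccnb1 and -2.14 for Ccnb2. For Ccnb1, 51.9% of the transcript has near-identical copies elsewhere in the genome, so its count is uncertain: by default, reads that map equally well to several places are not counted. Cks2 fell by 2.26 on the log2 scale, whereas Cks1b, which also serves in the ubiquitin ligase that removes a CDK inhibitor, was -0.71 ± 0.15 (adjusted p = 0.00393). Cks1b was at 118, 94.7 and 139.8 CPM at P2 baseline, 89.2, 169.6 and 157 CPM in the P2 sham group and 91.9, 110.0 and 113 CPM in the P2 resected group. At P10, Cks1b was at 68.7, 70.7 and 88.3 CPM at baseline, 49, 80.9 and 78.5 CPM after sham surgery and 72.9, 83.6 and 63.5 CPM after resection. Its P10 libraries were all below its P2 libraries, the highest P10 library at 88.3 CPM and the lowest P2 library at 89.2 CPM. Cks1b is given in full because its values, once seen, stood next to those of Cdc25b.

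The spindle pole kinases Plk1, Aurka and Nek2 and the spindle assembly factors Tpx2 and Hmmr were all called lower in the window difference, with a median of -2.40. Plk1, which drives centrosome maturation and many later steps, had the smallest adjusted p of the 51 genes (-2.40 ± 0.21, adjusted p = 1.08e-06). Tpx2, an activator of Aurora A, was at 116, 137 and 125 CPM at P2 baseline, 109, 94.9 and 82 CPM in the P2 sham group and 80.9, 138 and 105 CPM in the P2 resected group. At P10, Tpx2 was at 36.8, 24.1 and 20.6 CPM at baseline, 2.6, 14.3 and 7.31 CPM after sham surgery and 33, 38.8 and 7.07 CPM after resection. All P10 libraries were below all P2 libraries and the P10 sham libraries and P10 resected replicate 3 were low among them, with a window difference of -2.60 ± 0.32 (adjusted p = 2.51e-05). Hmmr, which binds hyaluronan and also spindle microtubules, was at 51.7, 44.7 and 49.3 CPM at P2 baseline, 60.8, 29.1 and 53.6 CPM in the P2 sham group and 34.3, 37.4 and 37 CPM in the P2 resected group. At P10, Hmmr was at 30.5, 1.55 and 0.888 CPM at baseline, 4.2, 3.95 and 1.7 CPM after sham surgery and 11.3, 10.3 and 4.2 CPM after resection. P10 baseline replicate 1 stood just above the lowest P2 library and the other 8 P10 libraries were well below, and the window difference was -2.69 ± 0.50 (adjusted p = 0.00127). Nek2, which helps to separate the centrosomes, was at 24.2, 14 and 21.3 CPM at P2 baseline, 38.2, 16.5 and 39.7 CPM in the P2 sham group and 14.8, 42 and 29.7 CPM in the P2 resected group. At P10, Nek2 was at 10.9, 2.89 and 7.79 CPM at baseline, 2.45, 6.27 and 2.07 CPM after sham surgery and 5.96, 17 and 7.69 CPM after resection. P10 resected replicate 2 lay within the range of P2 and the rest below it, with a window difference of -2.03 ± 0.34 (adjusted p = 5.45e-04). Aurka, the Aurora A kinase of the spindle poles, changed by -2.14 in the window difference and had no read in P10 sham replicate 3.

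All 4 genes of the chromosomal passenger complex were called lower in the window and at baseline, and in the window none overlapped between ages. The complex carries the kinase Aurkb on the scaffold Incenp, with Birc5 (survivin) and Cdca8 (borealin) as the targeting subunits. Birc5 was at 86.2, 60.0 and 111 CPM at P2 baseline, 67.8, 105 and 96.7 CPM in the P2 sham group and 52, 95.8 and 65.7 CPM in the P2 resected group. At P10, Birc5 was at 12.9, 9.9 and 19.9 CPM at baseline, 4.4, 9.44 and 6.18 CPM after sham surgery and 21.5, 33.9 and 10.3 CPM after resection. The 3 P10 sham libraries were the lowest and P10 resected replicates 1 and 2 the highest of the P10 libraries, and the window difference was -2.68 ± 0.25 (adjusted p = 1.78e-06). Cdca8 was at 72.6, 53.9 and 68.2 CPM at P2 baseline, 52.7, 62.7 and 74.2 CPM in the P2 sham group and 52.6, 79 and 55.7 CPM in the P2 resected group. At P10, Cdca8 was at 14.5, 14.4 and 19.4 CPM at baseline, 6.19, 13.5 and 7.78 CPM after sham surgery and 18.9, 33 and 7.23 CPM after resection. Its ages did not overlap, and the window difference was -2.15 ± 0.25 (adjusted p = 1.37e-05). Aurkb at -2.29 and Incenp at -2.26 lay between these 2 partners.

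The spindle checkpoint genes divided. Bub1, Bub1b, Mad2l1 and Ttk, kinases and inhibitors that keep Cdc20 from activating the APC/C, were called lower in the window difference, while Bub3, the subunit that brings Bub1 and BubR1 to the kinetochore, was not. Bub1 was at 36.4, 25.9 and 22.3 CPM at P2 baseline, 20.2, 20.8 and 32.4 CPM in the P2 sham group and 14.8, 18.5 and 35 CPM in the P2 resected group. At P10, Bub1 was at 2.73, 4.66 and 6.91 CPM at baseline, 0, 3.1 and 0 CPM after sham surgery and 5.77, 8.13 and 3.11 CPM after resection. It had no read in 2 P10 sham libraries, and all P10 libraries were below all P2 libraries, with a window difference of -3.06 ± 0.59 (adjusted p = 0.00179). Bub3 was at 177, 147 and 218 CPM at P2 baseline, 124, 213 and 236 CPM in the P2 sham group and 171, 183 and 152 CPM in the P2 resected group. At P10, Bub3 was at 86.1, 192 and 212 CPM at baseline, 98.5, 218 and 173 CPM after sham surgery and 141, 152 and 154 CPM after resection. The ages overlapped almost fully, with P10 baseline replicate 1 and P10 sham replicate 1 the lowest, and the window difference of -0.18 ± 0.19 was not called (adjusted p = 0.587). At baseline the sign of the Bub3 difference (-0.15) turned positive with voom and sample quality weights (0.086), without P2 baseline replicate 3 (0.011) or without P10 baseline replicate 1 (0.16), so no direction is given for it. Bub1b changed by -2.13, Mad2l1 by -1.87 and Ttk by -2.46 in the window difference.

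The outer kinetochore genes showed the largest median of the 10 roles, at -3.07, and all 5 were called lower in the window difference. Ndc80, Nuf2, Spc24 and Spc25 form the complex that grips microtubules, and Knl1 is the platform for Bub1 and its partners. Spc25 was at 80.2, 57.6 and 91.3 CPM at P2 baseline, 48.3, 106 and 142 CPM in the P2 sham group and 63.3, 63.2 and 54.1 CPM in the P2 resected group. At P10, Spc25 was at 21, 3.58 and 9.67 CPM at baseline, 14.1, 10.7 and 9.9 CPM after sham surgery and 18.5, 23.6 and 11.9 CPM after resection. Its ages did not overlap, with a window difference of -2.52 ± 0.29 (adjusted p = 1.43e-05). Spc24, its partner in the complex, was at 40.6, 34.7 and 47.6 CPM at P2 baseline, 32.6, 68.6 and 69.4 CPM in the P2 sham group and 35.6, 47.6 and 42.7 CPM in the P2 resected group. At P10, Spc24 was at 10.7, 11 and 8.48 CPM at baseline, 2.3, 10.9 and 8.44 CPM after sham surgery and 17.1, 21.2 and 5.83 CPM after resection. P10 resected replicates 1 and 2 were the highest of the P10 libraries and still below all of P2, and the window difference was -2.17 ± 0.29 (adjusted p = 6.21e-05). Ndc80 at -3.07 and Nuf2 at -3.16 changed by more than Spc24, although 22.9% of the Ndc80 transcript has near-identical copies. Knl1 was at 47.9, 52.7 and 18 CPM at P2 baseline, 91.3, 8.21 and 23.1 CPM in the P2 sham group and 31.1, 30.0 and 23.7 CPM in the P2 resected group. At P10, Knl1 was at 16.7, 0.375 and 0.395 CPM at baseline, 0.449, 3.43 and 0 CPM after sham surgery and 6.36, 8.83 and 3.81 CPM after resection. It was low in P2 sham replicate 2 and high in P10 baseline replicate 1, the libraries with the lowest and highest share of counts on long transcripts, and the ages overlapped there. The window difference of -3.31 ± 0.75 was called (adjusted p = 0.00593), with the widest standard error of the 51 genes.

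The 5 centromere proteins were all called lower in the window difference, with a median of -2.75. Cenpa, the histone H3 variant that marks centromeres, was at 78.4, 77.1 and 122 CPM at P2 baseline, 87.8, 152 and 128 CPM in the P2 sham group and 73.8, 121 and 131 CPM in the P2 resected group. At P10, Cenpa was at 39.4, 44.6 and 60.8 CPM at baseline, 11.1, 22 and 17.2 CPM after sham surgery and 30.0, 56.6 and 15.2 CPM after resection. Its ages did not overlap, but the P10 baseline group had the highest mean of the P10 groups, with a baseline difference of -0.94 ± 0.40 that was not called (adjusted p = 0.212), and the P10 sham libraries were lower than those at P10 baseline. The window difference was -1.83 ± 0.24 (adjusted p = 4.58e-05). Cenpe, the kinetochore motor, was at 87.6, 74.9 and 65.5 CPM at P2 baseline, 116, 8.62 and 38.4 CPM in the P2 sham group and 33.6, 46.7 and 58.9 CPM in the P2 resected group. At P10, Cenpe was at 20.9, 4.76 and 5.03 CPM at baseline, 0.0499, 0 and 0.754 CPM after sham surgery and 6.21, 11.4 and 5.44 CPM after resection. The 3 P10 sham libraries held 1, 0 and 16 reads of it, and P2 sham replicate 2 stood apart from the rest of P2 at a level within the P10 range. Its window difference of -4.34 ± 0.53 was the largest of the 51 genes (adjusted p = 2.81e-05), and the fitted difference of -7.53 ± 1.09 between the sham groups (adjusted p = 7.86e-04) rests on those few reads. Cenpf, a large protein of the outer kinetochore, changed by -3.22, and Cenpk and Cenpm of the inner kinetochore by -2.75 and -1.98.

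Genes of sister chromatid separation held the clearest exception. Cdc20, the activator of the APC/C, was at 77.8, 87 and 95.8 CPM at P2 baseline, 54.7, 137 and 104 CPM in the P2 sham group and 67.6, 137 and 99.1 CPM in the P2 resected group. At P10, Cdc20 was at 36.5, 30.7 and 43.4 CPM at baseline, 3.15, 27 and 9.85 CPM after sham surgery and 26, 65.5 and 18.4 CPM after resection. P10 resected replicate 2 reached the range of P2 while P10 sham replicate 1 was the lowest library, and the window difference was -1.86 ± 0.34 (adjusted p = 0.0011). Ube2c, the ubiquitin-conjugating enzyme of the APC/C, changed by -2.56, with 22.8% of its exon bases shared with Tnnc2 on the other strand, which unstranded counting cannot separate. Sgo2a, one of the shugoshins that protect centromeric cohesin, was at 13.5, 17.9 and 11.3 CPM at P2 baseline, 21.5, 3.41 and 13.2 CPM in the P2 sham group and 9.38, 10.1 and 6.94 CPM in the P2 resected group. At P10, Sgo2a was at 3.52, 0.428 and 2.66 CPM at baseline, 1.1, 0 and 1.89 CPM after sham surgery and 4.08, 2.73 and 1.32 CPM after resection. P2 sham replicate 2 overlapped the P10 libraries, and the window difference was -2.68 ± 0.55 (adjusted p = 0.00315), with 35% of its exon bases shared with Kctd18 on the other strand. Sgo1 changed by -2.57 and the protease Espl1 (separase) by -1.96. Pttg1 (securin), the inhibitor of separase, was at 52.1, 44.9 and 70.6 CPM at P2 baseline, 41.6, 61.1 and 36.6 CPM in the P2 sham group and 41.8, 35.4 and 38 CPM in the P2 resected group. At P10, Pttg1 was at 42.5, 53 and 62.6 CPM at baseline, 31.6, 50.7 and 63.3 CPM after sham surgery and 53.2, 39 and 54.8 CPM after resection. The P2 and P10 libraries overlapped, although the P2 resected libraries were all below those of both baseline groups. The window difference of Pttg1 was 0.11 ± 0.17 (adjusted p = 0.728). The sign of its baseline difference (-0.08) also turned positive with voom weights (0.048), without P2 baseline replicate 3 (0.12) or without P10 baseline replicate 1 (0.050). Separase and securin thus had different window differences within the same libraries, called for the one and not for the other, and that contrast was not tested as such.

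**Figure D3:**
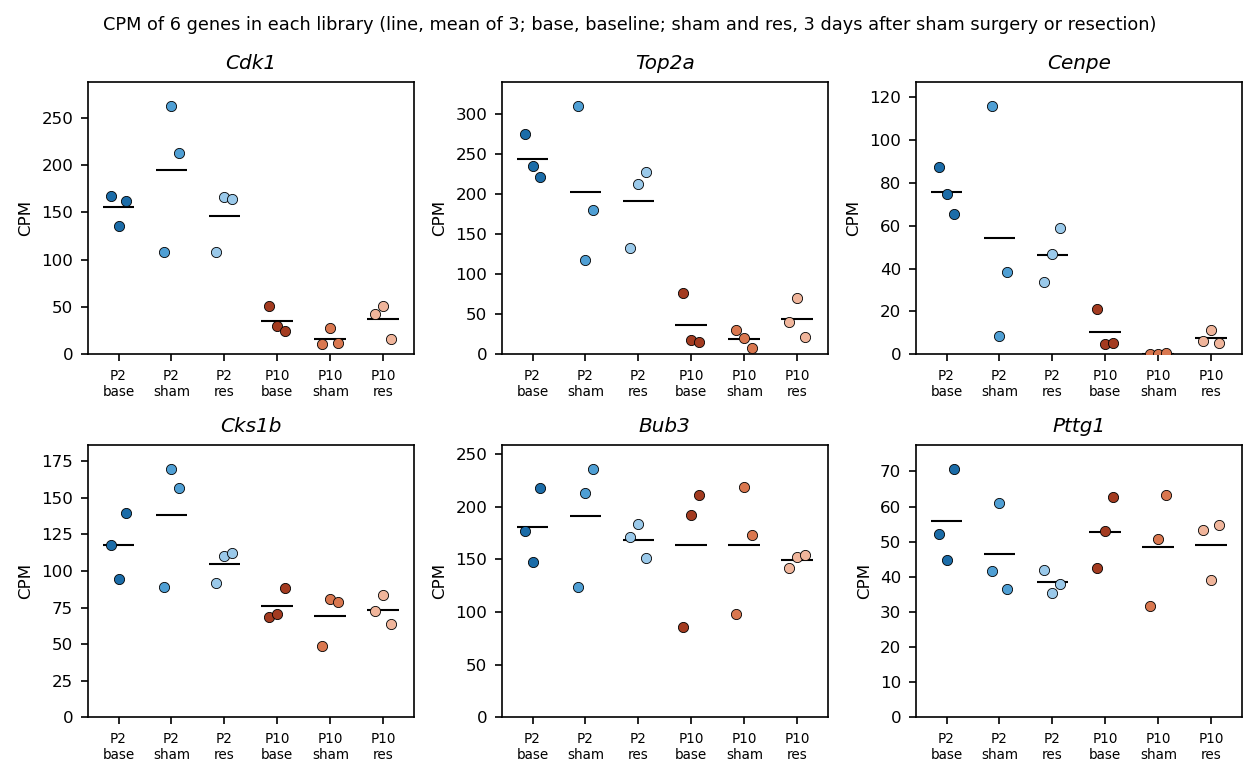
CPM (vertical axis, from 0) of Cdk1, Top2a, Cenpe, Cks1b, Bub3 and Pttg1 in each library of the 6 groups (horizontal axis), with a line at the mean of 3. Cdk1, Top2a and Cenpe drop from P2 to P10, Cks1b by less, and the P2 and P10 libraries of Bub3 and Pttg1 overlap.

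Condensin and topoisomerase genes were all called lower in the window difference, with a median of -2.04. Top2a, which untangles sister DNA, was at 276, 235 and 221 CPM at P2 baseline, 309.6, 118 and 179.9 CPM in the P2 sham group and 133, 213 and 227 CPM in the P2 resected group. At P10, Top2a was at 76.3, 17.4 and 14.8 CPM at baseline, 29.7, 19.8 and 7.54 CPM after sham surgery and 40.6, 69.9 and 21.1 CPM after resection. All P10 libraries were below all P2 libraries, and P10 baseline replicate 1 and P10 resected replicate 2 were the highest of P10, with a window difference of -2.76 ± 0.36 (adjusted p = 4.73e-05). Ncapg, a subunit of condensin I, was at 37.7, 41.8 and 34.5 CPM at P2 baseline, 25.4, 4.84 and 34.6 CPM in the P2 sham group and 24.3, 32.3 and 28.9 CPM in the P2 resected group. At P10, Ncapg was at 4.06, 2.41 and 0.395 CPM at baseline, 6.64, 1.1 and 4.72 CPM after sham surgery and 6.71, 6.93 and 5.52 CPM after resection. P2 sham replicate 2 lay among the P10 libraries, and Ncapg had the largest baseline difference of the 51 genes, -4.02 ± 0.76 (adjusted p = 0.00567). Ncaph, the kleisin that closes the condensin I ring, was at 75.3, 82 and 74.1 CPM at P2 baseline, 75.2, 36.7 and 41.5 CPM in the P2 sham group and 49.1, 67.7 and 54.7 CPM in the P2 resected group. At P10, Ncaph was at 16.1, 21.6 and 24.7 CPM at baseline, 5.24, 21.3 and 16 CPM after sham surgery and 19.6, 32.7 and 15.7 CPM after resection. Its ages did not overlap and its window difference of -1.69 ± 0.24 (adjusted p = 1.36e-04) was the smallest of this role. Smc2 and Smc4, the ATPase pair shared by both condensins, changed by -2.34 and -1.71, and Ncapd2 by -1.73.

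The cytokinesis genes changed by nearly the same amount, from -2.19 for Ect2 to -2.37 for Prc1, and all 4 were called lower in the window difference. Prc1, which bundles the central spindle, was at 128, 133 and 109 CPM at P2 baseline, 108, 96.4 and 139 CPM in the P2 sham group and 73.7, 137 and 109.9 CPM in the P2 resected group. At P10, Prc1 was at 43, 12.1 and 7.2 CPM at baseline, 19.7, 21.6 and 14.7 CPM after sham surgery and 25.1, 48.2 and 11.9 CPM after resection. Its ages did not overlap (adjusted p = 5.69e-05), with P10 baseline replicate 1 and P10 resected replicate 2 the highest of P10. Ect2, the exchange factor that switches on RhoA at the cleavage site, was at 29.6, 40.6 and 19.9 CPM at P2 baseline, 26.9, 27.4 and 39.3 CPM in the P2 sham group and 26.2, 42.9 and 29.8 CPM in the P2 resected group. At P10, Ect2 was at 12.9, 6.15 and 0.197 CPM at baseline, 6.09, 5.69 and 3.16 CPM after sham surgery and 8.2, 18.9 and 2.8 CPM after resection. P10 baseline replicate 3 held almost none, and P10 resected replicate 2 came just under the lowest P2 library (adjusted p = 0.00333). Racgap1, its partner in the central spindle, changed by -2.27, and Anln (anillin), the scaffold of the contractile ring, by -2.32.

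Foxm1 and Mybl2, the transcription factors of the late cell cycle, and Mki67, which encodes the Ki-67 protein that coats mitotic chromosomes, were called lower in the window difference but not at baseline. Foxm1 was at 48.3, 57.4 and 51.4 CPM at P2 baseline, 39.6, 50.9 and 45.4 CPM in the P2 sham group and 35.8, 69.4 and 52 CPM in the P2 resected group. At P10, Foxm1 was at 37.1, 12.2 and 16.2 CPM at baseline, 8.84, 8.41 and 3.68 CPM after sham surgery and 14.7, 16.4 and 7.3 CPM after resection. Only P10 baseline replicate 1 overlapped P2, and the window difference was -2.00 ± 0.25 (adjusted p = 3.63e-05). Mki67 was at 282, 246 and 138 CPM at P2 baseline, 433, 33.3 and 80.3 CPM in the P2 sham group and 134, 112 and 174 CPM in the P2 resected group. At P10, Mki67 was at 90.0, 6.42 and 2.66 CPM at baseline, 16, 5.76 and 3.82 CPM after sham surgery and 27.8, 36.1 and 9.32 CPM after resection. The spread inside groups was wide, with P2 sham replicate 2 below P10 resected replicate 2 and P10 baseline replicate 1 above P2 sham replicate 3, and the window difference was -3.23 ± 0.62 (adjusted p = 0.00166). Mybl2 changed by -2.14, with 28.3% of its transcript in near-identical copies.

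**Figure D4:**
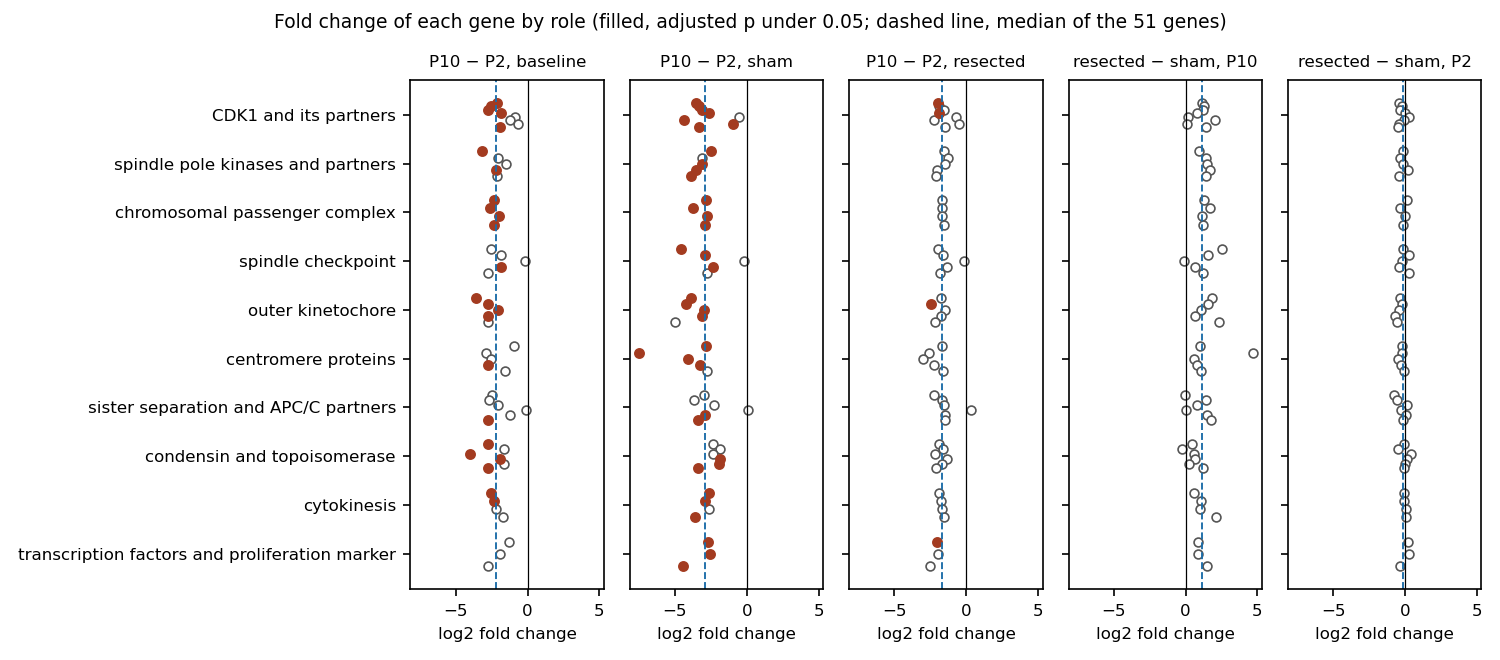
Log2 fold change (horizontal axis) of each of the 51 genes, by role (vertical axis), in 5 comparisons, with filled points for adjusted p under 0.05 and a dashed line at the median of the 51 genes. Apart from Pttg1, the age differences lie left of 0, with medians of -2.21, -2.93 and -1.70, the P10 resection differences mostly right of 0 with a median of 1.11, and the P2 resection differences around 0.

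Because libraries differed in their share of counts on long transcripts, the differences were set beside transcript length, which was known for all 51 genes and for 13675 of the 16170 genes tested. The 14 genes under 2000 bases had a median window difference of -2.15, against 0.02 for all genes of that length. The 29 genes of 2000 to under 5000 bases had -2.40, against 0.01, and the 8 genes of 5000 bases or more had -2.99, against -0.18. Among the 8 long genes, Cenpe, Knl1, Mki67 and Cenpf had differences beyond -3, and Mad2l1 and Espl1 were at -1.87 and -1.96. The part of transcript length in the size of these differences was not tested.

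**Figure D5:**
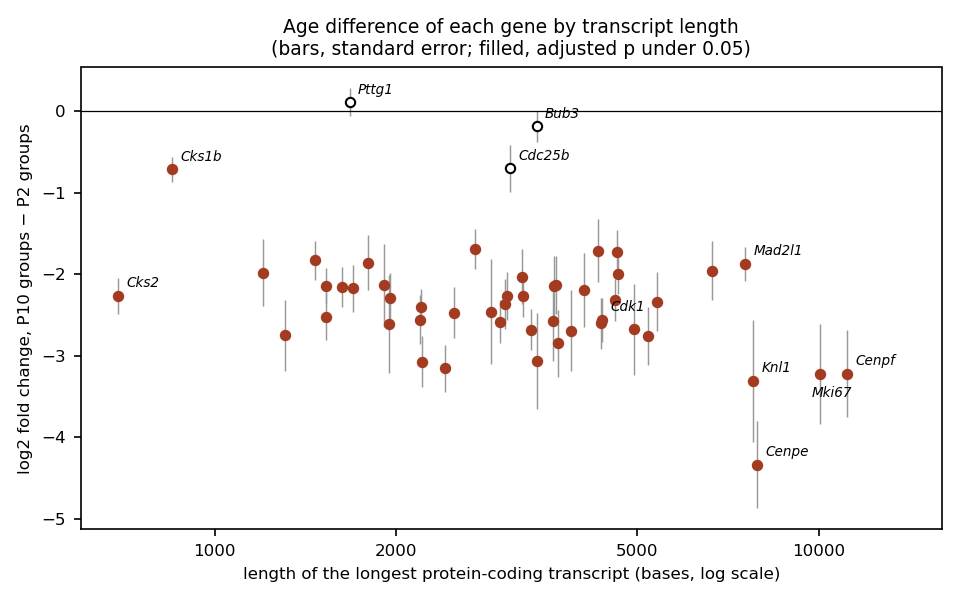
Window difference (vertical axis, log2 fold change with its standard error) of each of the 51 genes against the length of its longest protein-coding transcript (horizontal axis, log scale), with open points for the 3 genes not called. Filled genes lie below 0 at every length, and the long genes Cenpe, Knl1, Mki67 and Cenpf lie lowest.

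The design also asked whether resection changes the sorted cells at either age. At P2 none of the 51 genes was called between resected and sham libraries by edgeR, which called 0% of all genes, or by DESeq2, which called 0.149% higher and 0.00621% lower, and none had an unadjusted p under 0.05, against 3.38% of all genes higher and 1.13% lower. The median was -0.12 (0.00 over all genes), and the single genes ran from -0.77 for Sgo1 to 0.40 for Ncapg, with standard errors from 0.26 for Cks1b to 1.17 for Knl1. All 51 genes overlapped between these groups, where 5.62% of all genes were higher and 2.85% lower without overlap. At P10 none was called either, again with 0% of all genes, but 48 of 51 had a positive difference, as did 52% of all genes, with a median of 1.11 against 0.02 over all genes. Of these, 23 had an unadjusted p under 0.05, as did 3.43% of all genes in that direction, and 12 had all resected libraries above all sham libraries, as did 5.63% of all genes. The resected libraries also detected more genes with at least 1 count, 19847, 17334 and 17080 against 16458, 16256 and 16413 in the sham libraries, without overlap. Cdc25c, Aurka, Bub1, Ttk, Knl1, Cenpe and Sgo2a had no read in at least 1 P10 sham library, and every one of the 51 genes had reads in all other libraries. At P2 the resected libraries likewise detected 19707 to 20163 genes against 16384 to 17213 in the sham libraries. The part of this library difference in the resection differences of the 51 genes was not tested at either age.

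The genes with the smallest p at P10 were Cenpe, Racgap1 and Birc5, at 4.71 ± 1.01, 2.08 ± 0.51 and 1.72 ± 0.42 (adjusted p = 0.626 for each). Racgap1, given because its p was among the smallest, was at 3.85, 10.3 and 13 CPM in the P10 sham libraries and 35.1, 66.2 and 13.9 CPM in the P10 resected libraries, without overlap but with resected replicate 3 close to sham replicate 3. DESeq2 called these 3 genes higher (0.23% of all genes), and edgeR without the filter on low counts called 10 (0.256%). Without P10 sham replicate 2 edgeR called 2 genes, Cdc25c and Bub1 (0.029% of all genes), and neither had a read in the 2 sham libraries that remained. The summed level in the P10 resected libraries, 1110.2, 1522 and 747 CPM, overlapped that at P10 baseline, and the sham libraries at 609.6, 876 and 646 CPM also overlapped both. Macrophage and myeloid markers, with no member of 12 called, summed to 89.6, 362 and 290 CPM in the P10 sham libraries and to 445, 1081 and 69.5 CPM in the P10 resected libraries. Resected replicate 2 was the highest and replicate 3 the lowest in both sums, and the part of the macrophage markers in the difference was not tested. Epicardial markers, at most 53.3 CPM in sum, had a median difference of 3.71 over the 6 genes tested and endothelial markers one of 1.47 over 9 genes, with none called, and their part in the difference was not tested either.

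The difference between the resection effects, P10 minus P2, was positive for 50 of 51 genes and for 52.3% of all genes, with a median of 1.19 against 0.03 over all genes. None was called by edgeR, where 0% of all genes were, and 12 had an unadjusted p under 0.05, against 1.48% of all genes. DESeq2 called Cenpe alone (0.0994% of all genes in that direction). In this comparison cardiomyocyte markers had a negative difference for 1 of 11 genes (median 0.85) and epicardial markers for 1 of 6 (median 4.46). Endothelial markers had one for 2 of 9 (median 0.37), macrophage and myeloid markers for 9 of 12 (median -0.23) and mural markers for 5 of 7 (median -0.31). None of these markers was called by edgeR, and their part in the difference was not tested. Averaged over both ages, resection differed from sham by a median of 0.51 with none called by edgeR, 0% of all genes, and 1, Cenpe, called by DESeq2 (0.397% of all genes higher). For 6 genes the unadjusted p was under 0.05, against 4.55% of all genes. Without P10 sham replicate 2, edgeR called Cdc25c and Bub1 in each of these comparisons (0.0232% of all genes), again with both at 0 in the remaining P10 sham libraries and read in all P2 sham libraries.

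The control groups form a chain of ages that also includes surgery. Between P2 baseline and the P2 sham group collected at P5, the median difference of the 51 genes was -0.02. None of the 51 was called by edgeR, which called 0% of all genes, or by DESeq2, which called 0.59% of all genes higher and 0.267% lower, and none had an unadjusted p under 0.05, against 4.14% of all genes higher and 3.46% lower. Between the P2 sham group and P10 baseline, the median was -2.19 and 18 genes were called lower, against 0.631% of all genes, with 45 under an unadjusted p of 0.05, against 7.63% of all genes. DESeq2 called 33 (2.73% of all genes), edgeR without the filter on low counts 43 (0.976%), voom with quality weights 43 (3.84%) and a fit of these groups alone 0 (0% of all genes lower). The edgeR count fell to 7 without P10 baseline replicate 2 (0.139%) or 3 (0.145%), to 10 without P2 sham replicate 3 (0.226%) and to 12 without P2 sham replicate 2 (0.354%). For 38 genes these 2 groups did not overlap, against 6.6% of all genes. In this step cardiomyocyte markers had a negative difference for all 11 genes (median -0.75) and epicardial markers for 5 of 6 (median -5.84). Mural markers had one for 1 of 7 (median 0.87), endothelial markers for 4 of 9 (median 0.50) and macrophage and myeloid markers for 5 of 12 (median 0.14). None of these markers was called, and their part in the difference was not tested. Between P10 baseline and the P10 sham group collected at P13, the median of the 51 genes was -0.86. None was called lower, against 0% of all genes, while 15 had an unadjusted p under 0.05 against 4.16% of all genes, and 10 did not overlap against 4.69% of all genes. DESeq2 called 3 of the 51 genes lower, Cenpa, Cenpe and Foxm1 (0.414% of all genes), edgeR without the filter on low counts called 12 (0.242%), and edgeR without P10 sham replicate 2 called Cdc25c and Bub1 (0.0232%), which have no read in the sham libraries left. In the same comparison macrophage and myeloid markers had a positive difference for 11 of 12 genes (median 1.33), mural markers a negative one for all 7 (median -0.54) and cardiomyocyte markers a negative one for 9 of 11 (median -0.56), with none called, and their part in the difference was not tested. Surgery and the 3 days of growth cannot be told apart in the first and last of these steps. The middle step compares sham-operated pups at P5 with un-manipulated pups at P10, so age and surgery cannot be told apart there either.

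A further 92 genes that act in mitosis, none of them among the 51 and none a mitotic kinesin, were all tested. In the window difference 57 were called lower and none higher, where 6.39% of all genes were called lower, with a median of -1.05 against -0.06 over all genes. Kinases, phosphatases and cytokinesis genes were called lower in 23 of 28 cases (median -2.13), for instance Nusap1 at -2.64 and Cep55 at -3.06, both of which act at the spindle or midbody. Other centromere and kinetochore genes were called lower in 24 of 28 cases (median -1.61), among them Ska1, which helps kinetochores to hold microtubules, at -2.51 and the Cenpa chaperone Hjurp at -0.93. Of the 17 genes of the APC/C group, whose activator and ubiquitin-conjugating enzyme are Cdc20 and Ube2c, 4 were called lower, with a median of -0.17, namely Anapc1, Anapc4, Anapc15 and the inhibitor Fbxo5. Of the 11 cohesin genes Rad21, Esco2 and Cdca5 were called lower, and of the MuvB core only Lin9 of 5 genes. At P10, none of the 92 was called between resected and sham libraries, with a median of 0.23. The median there was 0.70 for the other centromere and kinetochore genes and 0.86 for the kinases, phosphatases and cytokinesis genes. It was 0.004 for the APC/C group, 0.06 for cohesin, 0.07 for the other condensin genes and -0.20 for the MuvB core.

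Most of the 51 genes also moved together across libraries. The correlation of each gene's log2 CPM with the mean of the other genes over the 18 libraries had a median of 0.915, and 31 genes were above 0.9, while Pttg1 was at -0.22 and Bub3 at 0.18. Most of this is the difference between the ages, and within groups the median was 0.54. The libraries share these genes' depth and scaling, so the values describe the table and carry no test.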

How the data were processed

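RNA of sorted GFP+ cells was amplified with a low-input poly(A) kit and sequenced as single-end reads in 18 libraries. The authors trimmed reads with fastp (0.20.0), aligned them with STAR (2.7.0f) to GRCm38.p6 and counted exon reads per gene name without strand using featureCounts of Subread (1.6.4). They deposited raw counts that were not normalized. Reads that map to several places are left out of such counts by default. Groups came from the sample labels.

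The counts were tested with edgeR (4.0.16), quasi-likelihood, in R (4.3.3). One fit held all 18 libraries with 6 group means and 12 residual degrees of freedom, TMM scaling and filterByExpr (minimum count 10, minimum total count 15), leaving 16170 genes. P-values are two-sided and Benjamini-Hochberg adjusted, with a threshold of 0.05. The test was also run on simulated data, and the outcome is not given here. Alternatives were DESeq2 (1.42.0), RLE scaling, no filter, voom with quality weights (limma 3.58.1), a replicate block, only the groups compared, and leaving out each library. Deviations of same-numbered libraries from their group means all correlated above 0.1 in 3 of 15 pairs of groups. These were P2 and P10 resected (0.12 to 0.19), P2 sham and P10 baseline (0.15 to 0.38) and P10 baseline and sham (0.11 to 0.33). The numbers were read as pairs there and in no other comparison. That choice was taken from these same data, and no label pairs the libraries or says what they share. Positions and lengths came from GENCODE M21 on GRCm38, near-identical copies (at least 95% identity over 75 bases) from blastn (2.17.0), and promoters from RefSeq.

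The 51 genes and the other gene lists were chosen with earlier results of these data known. All libraries were printed for Cdk1 and, in each role, for the gene of highest mean CPM and those of largest and smallest window difference. Cks1b and Racgap1 were added after their values were seen.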

Additional observations from a re-analysis of the deposited data

How the results depend on the processing

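In the window difference 48 or 49 of the 51 genes were called under every alternative and without any library. None of the 51 genes was called between P2 resected and P2 sham, or between P2 sham and P2 baseline, under any alternative. The other counts moved, and after resection the share of all genes called lower rose from 0.235% to between 0.383% and 2.59% in the DESeq2, unfiltered, block, voom and separate fits. At baseline (24) no filter on low counts gave 43 and voom with quality weights 47, and leaving out a library gave 11 to 35. After sham surgery (37) a fit of only these groups gave 20, and leaving out a library gave 25 to 37. After resection (4) DESeq2 gave 27, no filter 41, the replicate block 8, voom 43 and only these groups 20, and leaving out a library gave 0 to 6. For resection against sham at P10 (0) DESeq2 gave 3, no filter 10 (0.256%) and leaving out a library 0 to 2. For the difference between resection effects (0) DESeq2 gave 1, no filter 2 (0.083%) and leaving out a library 0 to 2. For resection over both ages (0) DESeq2 gave 1, no filter 3 (0.318%) and leaving out a library 0 to 2. For P10 sham against P10 baseline (0) DESeq2 gave 3, no filter 12 (0.242%) and leaving out a library 0 to 2. For P10 baseline against P2 sham (18, 0.631% of all genes) DESeq2 gave 33 (2.73%), no filter 43 (0.976%), voom 43 (3.84%) and only these groups 0, and leaving out a library gave 7 to 27.

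Of 875 single-gene values for 25 genes in the baseline and window differences, 811 kept their direction and side of the threshold, 23 lost the call, 35 gained it and 6 changed sign. The sign changes were Bub3 and Pttg1 at baseline, at 0.086 and 0.048 with voom. Leaving out a library gave -0.38 to 0.16 for Bub3 and -0.23 to 0.12 for Pttg1, positive without P2 baseline replicate 3 or P10 baseline replicate 1. The cause of these shifts was not tested. As far as the labels say, the samples share only a number in every comparison: 10 of 18 libraries were closest to their own. With the replicate block 31 genes were called at baseline (2.71% of all genes lower), 43 after sham surgery (1.95%) and 48 in the window. Where the numbers were read as pairs, the block gave 8 after resection, 21 for P10 baseline against P2 sham (0.977%) and 0 for P10 sham against P10 baseline. It moved no other count by over 1.5 times. At P10 genes with few counts, such as Cenpe, Cdc25c and Bub1 in the sham libraries, have fold changes of low precision.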
